A study of Arabidopsis thaliana with 6 samples.

Results

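For camalexin and indole glucosinolates, both made from tryptophan, 6 genes were followed here, each through 1 of the 22810 probe sets of the ATH1 array. They were chosen by name, by a rule that uses no expression value: PAD3 (AT3G26830, 258277_at) and CYP71A13 (AT2G30770, 267567_at) of the camalexin branch, CYP79B2 (AT4G39950, 252827_at) and CYP79B3 (AT2G22330, 264052_at) of the entry step that both branches share, CYP83B1 (AT4G31500, 253534_at) of the glucosinolate branch, and WRKY33 (AT2G38470, 267028_at), a transcription factor gene. The choice was nevertheless made with earlier results of these data known, so it was not blind to the changes reported below. The pairing of probe set and gene is that of the rule that chose them, since the platform annotation used here listed 0 of the 6. Fragmented cRNA made from total RNA of whole Arabidopsis plants had been hybridised to 1 array per sample. Of the samples 3 were wild type and 3 were cax1cax3, a double mutant in vacuolar cation/H+ exchangers, all in the Columbia-0 ecotype. The labels do not give the alleles. Plants of both genotypes were raised for 10 days on 0.5X MS medium with 0.5% sucrose and for 3 weeks in soil, under 16 hours of light at 22 °C, and were labelled 40 days old. By harvest the mutant had begun to form necrotic lesions, so genotype and lesions cannot be told apart. In whole plants, fewer cells of a type and less RNA per cell cannot be told apart either.

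Camalexin is the main phytoalexin of Arabidopsis, made after attack by pathogens or tissue damage, while indole glucosinolates are sulfur compounds that healthy tissue stores and breaks down on wounding or attack. Both start from tryptophan, which CYP79B2 and CYP79B3 turn into indole-3-acetaldoxime. From there CYP83B1 leads to the glucosinolates, and CYP71A13 to indole-3-acetonitrile, on the way to camalexin, whose last step PAD3 (CYP71B15) performs. WRKY33 binds the PAD3 promoter and is needed for the rise of camalexin after infection by fungi or bacteria.

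WRKY33 was higher in the mutant, and the enzyme genes of both branches were not called in either direction. Among the 6 genes 1 passed the threshold, an adjusted p under 0.05 by limma's moderated test adjusted by Benjamini-Hochberg across the 22746 probe sets tested, of which 5.62% passed. No member was called lower. All values below are log2 expression, and all changes are the mutant minus the wild type. The values of the 6 genes lay above the 95th percentile of 27 probe sets for bacterial transcripts (4.70, with a highest value of 5.81) on every array. The nature of the numbers 1 to 3 given to the arrays of each genotype is not stated, nor whether they are separately grown plants, so the p-values rest on a spread among arrays that may be technical.

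WRKY33 stood at 7.97, 7.05 and 7.16 in wild-type arrays 1, 2 and 3, and at 8.66, 8.97 and 8.62 in mutant arrays 1, 2 and 3. The genotypes did not overlap, which held for 1 of the 6 genes and for 24.6% of all probe sets. The change was 1.36 ± 0.25 (SE, n = 3 per genotype), or 2.56-fold, with an adjusted p of 0.0307 by limma and a 95% interval of 0.75 to 1.96. Within the numbers it was 0.69, 1.91 and 1.46. The direction was kept in each of 6 fits that left out 1 array, but the call was lost in 4 of them: without wild-type array 2 or 3 (adjusted p = 0.109 and 0.0881) and without mutant array 1 or 2 (adjusted p = 0.0809 and 0.131).

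PAD3, the final enzyme gene of camalexin synthesis, stood at 6.45, 5.31 and 7.61 in the wild type and at 6.98, 6.77 and 7.43 in the mutant. The wild-type arrays enclosed all mutant values, from array 2, the lowest of the 6, to array 3, the highest. The value of wild-type array 2 lay below the highest bacterial value of 5.81. The mean was 6.45 ± 1.15 in the wild type and 7.06 ± 0.34 in the mutant (SD, n = 3). The change of 0.61 ± 0.54 (SE) was not called (adjusted p = 0.622 by limma), and its 95% interval ran from -0.68 to 1.89, that is from 0.626 to 3.70 times the wild-type level. A rise as large as that of WRKY33 lies inside that interval. The size rested on wild-type arrays 2 and 3: without array 2 the change was 0.03, and without array 3 it was 1.18, neither called. Within the numbers the difference was 0.53, 1.46 and -0.17.

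CYP71A13, which acts before PAD3 in the camalexin branch, stood at 5.96, 5.19 and 6.39 in the wild type and at 6.05, 5.43 and 5.56 in the mutant. The genotypes overlapped across most of their range, and both included values below the highest bacterial one. The change of -0.16 ± 0.32 (SE) was not called (adjusted p = 0.849 by limma, 95% interval -0.92 to 0.60). CYP71A13 has a close paralogue, CYP71A12, beside it in the genome, and whether the probe set separates the transcripts was not tested.

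**Figure D1:**
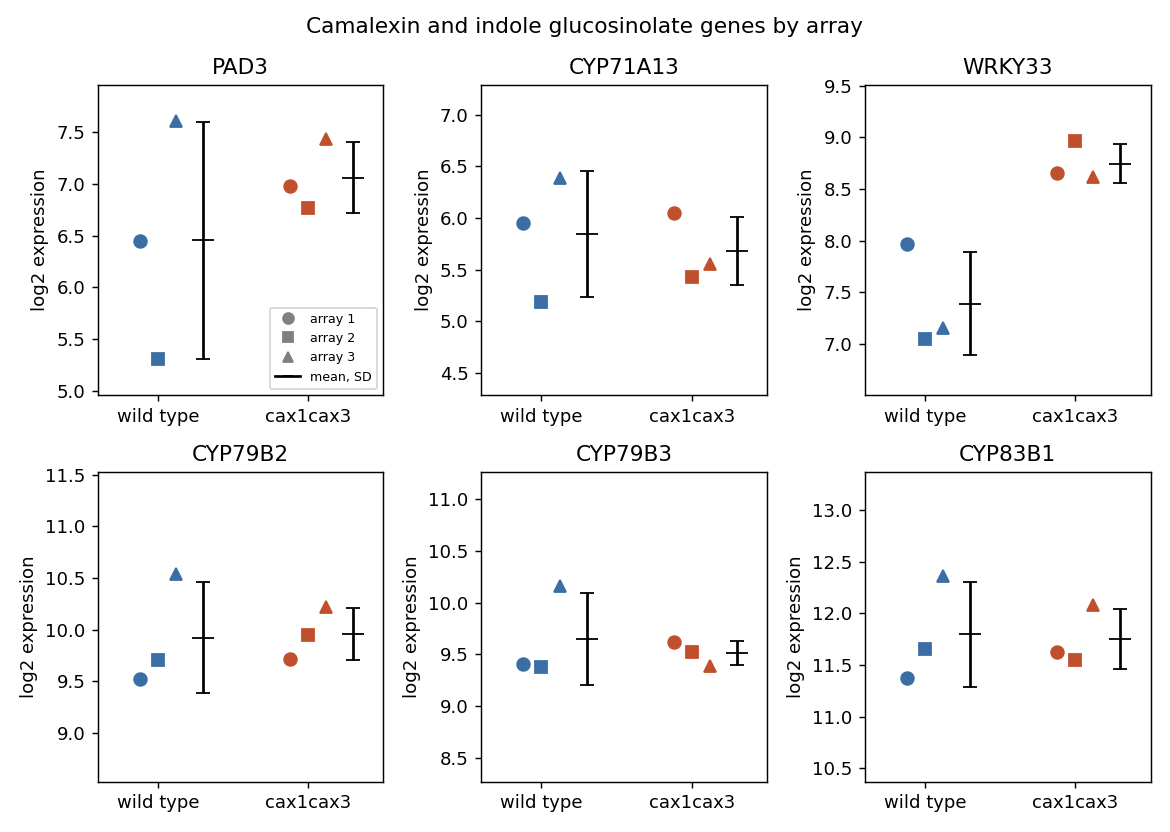
Log2 expression of each of the 6 genes (vertical axes, all spanning the same number of log2 units) in wild-type and cax1cax3 arrays, with a marker shape per array number, and the mean and SD of the 3 arrays in black. WRKY33 lay between 7.05 and 7.97 in the wild type and between 8.62 and 8.97 in the mutant, while the genotypes overlapped for the other 5 genes.

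The entry step showed no called change. CYP79B2 stood at 9.52, 9.71 and 10.54 in the wild type and at 9.71, 9.95 and 10.22 in the mutant. Its change was 0.04 ± 0.28 (SE, adjusted p = 0.967 by limma), with a 95% interval of -0.62 to 0.70. CYP79B3, which performs the same reaction, stood at 9.41, 9.37 and 10.16 in the wild type and at 9.62, 9.52 and 9.39 in the mutant. Its change was -0.13 ± 0.22 (SE, adjusted p = 0.814 by limma), with a 95% interval of -0.66 to 0.39. For both genes wild-type array 3 was the highest of the 6, and the remaining wild-type values lay within or below those of the mutant.

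CYP83B1, the gate of the indole glucosinolate branch, stood at 11.38, 11.65 and 12.37 in the wild type and at 11.63, 11.55 and 12.08 in the mutant. The genotype means were 11.80 ± 0.51 and 11.75 ± 0.29 (SD, n = 3). The change of -0.05 ± 0.27 (SE) was not called (adjusted p = 0.958 by limma), and the 95% interval of -0.70 to 0.61 corresponds to 0.617 to 1.52 times the wild-type level. The intervals of all 5 enzyme genes therefore allow changes in either direction, and the absence of a call does not show that their transcripts were equal.

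The branches were contrasted through the log2 ratio of each gene to CYP83B1 within an array, compared between genotypes with an exact two-sided permutation test, whose smallest possible p with 3 arrays against 3 is 0.1. Neither this test nor the SE of a contrast pairs arrays by number. The ratio of PAD3 to CYP83B1 was -4.93, -6.34 and -4.76 in wild-type arrays 1, 2 and 3 and -4.65, -4.78 and -4.65 in the mutant. Mutant arrays 1 and 3 lay above every wild-type array, and mutant array 2 lay just below wild-type array 3. The change of PAD3 exceeded that of CYP83B1 by 0.65 ± 0.50 (SE, exact permutation p = 0.2, n = 3 per genotype). It was positive within each number, at 0.28, 1.56 and 0.11, and it was 0.15 without wild-type array 2. For CYP71A13 the corresponding difference was -0.12 ± 0.41 (exact permutation p = 0.7), with -0.15, 0.35 and -0.55 within the numbers. It turned positive without wild-type array 1 (0.15) or mutant array 3 (0.11). The camalexin genes were thus not separated from the glucosinolate gene beyond the spread of the arrays, taken without pairing by number.

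The entry-step genes differed in how closely they followed CYP83B1. The ratio of CYP79B2 to CYP83B1 had an SD of 0.06 over the wild-type arrays and 0.17 over the mutant ones, where the CYP79B2 values themselves had SDs of 0.54 and 0.25. The ratio of CYP79B3 had an SD of 0.16 in the wild type and 0.39 in the mutant, against 0.45 and 0.12 for CYP79B3 itself, and in mutant array 3 it stood at -2.69 against -2.01 and -2.02 in mutant arrays 1 and 2. The change of CYP79B2 exceeded that of CYP83B1 by 0.08 ± 0.10 (SE, exact permutation p = 0.7, n = 3 per genotype). That of CYP79B3 was lower by -0.09 ± 0.24 (exact permutation p = 0.8). The change of WRKY33 exceeded that of CYP83B1 by 1.40 ± 0.59 (exact permutation p = 0.2), and the genotypes overlapped in this ratio, since wild-type array 1 at -3.41 lay above mutant array 3 at -3.47. Arrays of the genotypes did not overlap for 0 of the 5 ratios, as against 6.64% of all probe sets set over CYP83B1. Set over WRKY33 instead, a contrast added after the values were seen, the change of PAD3 was lower by -0.75 ± 0.76 (exact permutation p = 0.5) and that of CYP71A13 by -1.52 ± 0.48 (exact permutation p = 0.1). The latter ratio was lower in every mutant array, as it was for 91% of all probe sets, since it carries the rise of WRKY33 with the sign turned.

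**Figure D2:**
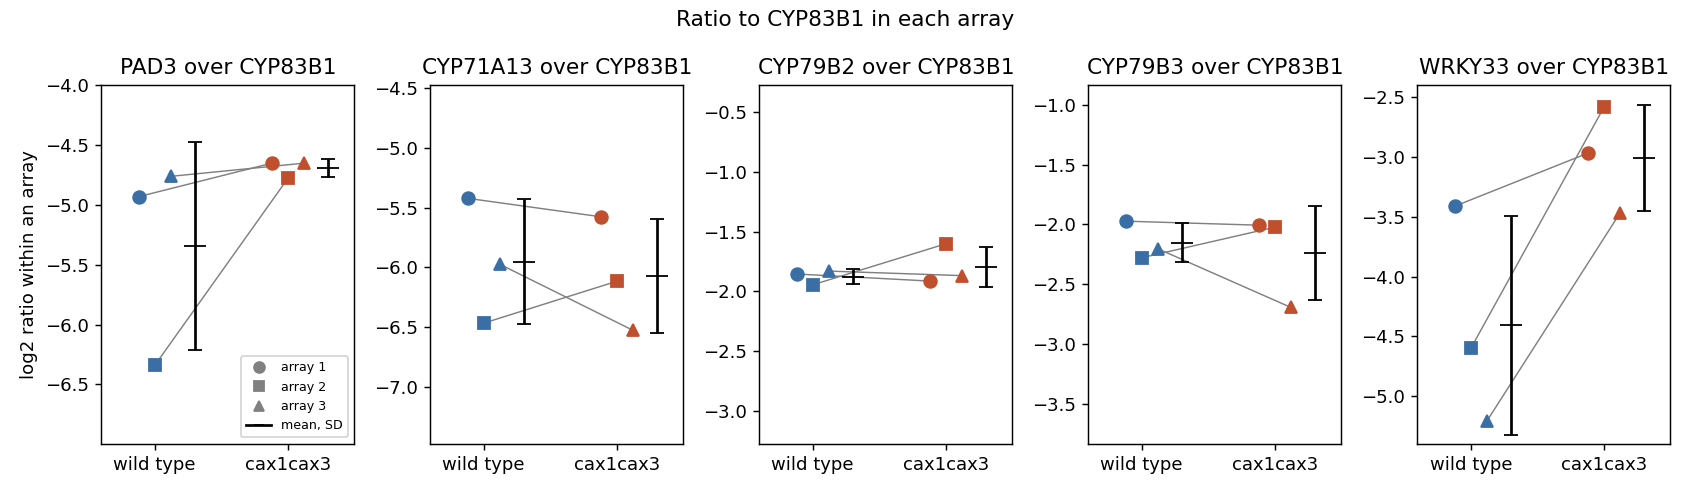
Log2 ratio of 5 genes to CYP83B1 within each array (vertical axes, same span), by genotype, with grey lines joining arrays of the same number and the mean and SD of 3 arrays in black. The CYP79B2 ratio stayed between -1.94 and -1.60 on all 6 arrays, while the PAD3 ratio of wild-type array 2, at -6.34, stood far below the rest.

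Several of the enzyme genes varied with the array number. PAD3, CYP79B2 and CYP83B1 were higher in both arrays numbered 3 than in the other 4, as were 11% of all probe sets, and wild-type array 3 was the highest of the 6 arrays for 5 of the 6 genes, as for 18.1% of all probe sets. The exception was WRKY33. These counts were made after the values were seen. Wild-type array 3 exceeded the mean of wild-type arrays 1 and 2 by 1.73 for PAD3, 0.82 for CYP71A13, 0.92 for CYP79B2, 0.77 for CYP79B3 and 0.85 for CYP83B1. In the mutant the corresponding differences were 0.56, -0.18, 0.39, -0.18 and 0.50. All 6 genes had a larger SD over the wild-type arrays than over the mutant ones, as did 37.9% of all probe sets. With both arrays numbered 3 left out, an alternative chosen after seeing the data, the changes were 0.99 for PAD3, 0.17 for CYP71A13, 0.21 for CYP79B2, 0.18 for CYP79B3 and 0.07 for CYP83B1, none called, and 1.30 for WRKY33 (adjusted p = 0.0577 by limma over 2 arrays per genotype). With the array number as a block, WRKY33 remained called (adjusted p = 0.0336 by limma) and the other 5 genes remained uncalled, where 9.78% of all probe sets were called.

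The genes differed in how alike their profiles were over the 6 arrays, measured as the root mean square difference after each probe set's own mean was subtracted. CYP79B2 differed from CYP83B1 by 0.11, which placed it at rank 6 of 22745 probe sets by closeness to CYP83B1. CYP79B3 differed from it by 0.25 (rank 1075), CYP71A13 by 0.41 (rank 14082), PAD3 by 0.60 (rank 20356) and WRKY33 by 0.91 (rank 22081). Most probe sets therefore lay nearer to CYP83B1 than either camalexin gene. The measure also grows with the size of a gene's variation. The root mean square around the gene's own mean was 0.34 for CYP83B1, 0.41 for CYP71A13 and 0.75 for PAD3. A probe set without variation would differ from CYP83B1 by 0.34, less than either camalexin gene, so these ranks do not measure likeness of shape alone. PAD3 and CYP71A13, both of the camalexin branch, differed from each other by 0.57. These distances describe 6 arrays that share their normalization and the shift between numbers.

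The named probe sets nearest to each profile were taken by the same measure from 13513 with 1 annotated gene. Nearest to PAD3 were GRX480, a glutaredoxin gene that responds to salicylic acid (0.27), the plastid gene rpl14 (0.30), CCS, which encodes a copper chaperone of superoxide dismutase (0.30), AT3G23550 (0.32) and AT5G19240 (0.36). GRX480 stood at 6.82, 6.11 and 8.18 in the wild type and at 6.98, 7.24 and 8.22 in the mutant. It shared with PAD3 a lowest value in wild-type array 2 and high values in both arrays numbered 3. Nearest to CYP71A13 were IQD24 (0.12), the plastid gene ndhG (0.15), AT4G16140, AT4G01290 and AT3G04210 (up to 0.19). Nearest to CYP83B1 were both probe sets of AT1G31710 (0.08 and 0.11), AT4G03820 (0.09), AT1G44790 (0.11) and HWS, an F-box gene (0.12). None of these genes was called between the genotypes.

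**Figure D3:**
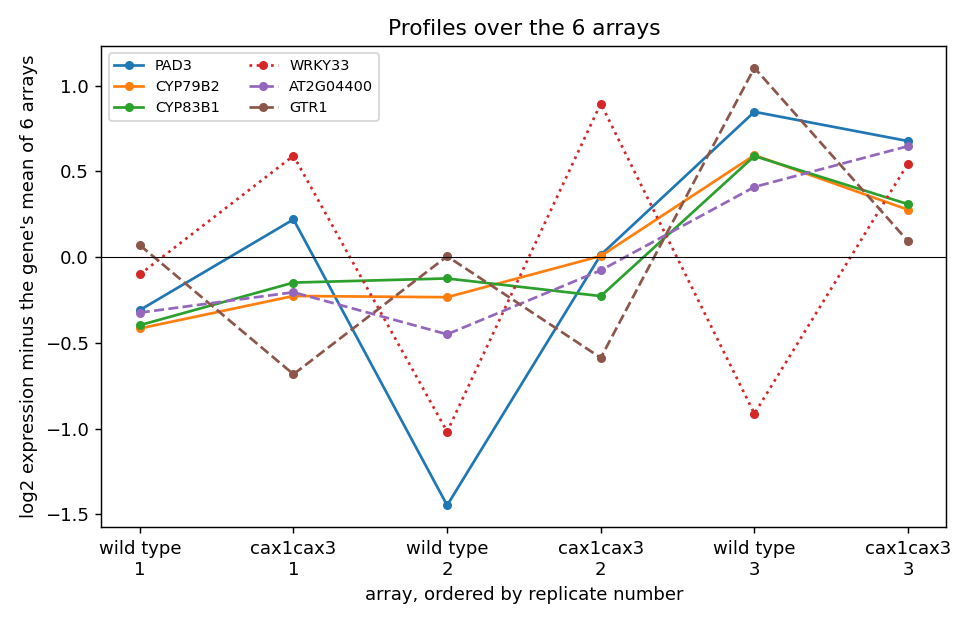
Log2 expression minus each gene's mean over the 6 arrays (vertical axis), with arrays ordered by number and genotype (horizontal axis), for 4 of the 6 genes and for AT2G04400 and GTR1. PAD3, CYP79B2, CYP83B1, AT2G04400 and GTR1 were higher in both arrays numbered 3 than in the other 4, and WRKY33 was higher in the mutant array of each number.

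Of 78 further genes listed for these pathways, the annotation named 11, of which 1 rose and none fell. On the camalexin side, 1 of 10 listed branch partners and 0 of 13 listed regulators were measured. The median change of the 11 was -0.14, against 0.01 over all probe sets, and 2.34% of all probe sets rose and 3.28% fell. The gene that rose was CYP71B6, which encodes an enzyme that metabolises indole-3-acetonitrile, the product of CYP71A13. It stood at 9.49, 9.34 and 9.50 in the wild type and at 9.97, 10.06 and 10.02 in the mutant. Every mutant array lay above every wild-type array, where 24.6% of all probe sets did not overlap in either direction. Its change was 0.58 ± 0.09 (SE, 1.49-fold, adjusted p = 0.0199 by limma). The call was lost without wild-type array 1, 2 or 3 or mutant array 2, where adjusted p values ran up to 0.0950.

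AT1G26380, listed here for other uses of indole-3-acetaldoxime and indole nitriles, stood at 6.44, 5.42 and 5.98 in the wild type and at 7.28, 7.11 and 6.75 in the mutant. The genotypes did not overlap, which held in either direction for 24.6% of all probe sets. The change of 1.10 ± 0.27 (SE) was not called (adjusted p = 0.0692 by limma, and 0.0367 with the array number as a block). AT2G04400, listed for tryptophan supply, was not called (0.24, adjusted p = 0.739). It was higher in both arrays numbered 3, at 10.41 and 10.65, than in the other 4, which lay between 9.55 and 9.92.

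On the glucosinolate side no measured gene was called, but most listed genes were not measured. For indole glucosinolates, 1 of 5 core genes, 0 of 7 modification genes and 2 of 8 regulators were measured. For breakdown and transport it was 3 of 8, and for aliphatic glucosinolates 2 of 12. UGT74B1, which encodes the glucosyltransferase of the core pathway downstream of CYP83B1, stood at 10.15, 10.05 and 10.38 in the wild type and at 9.82, 9.74 and 10.00 in the mutant. Every mutant array lay below every wild-type array, and the change of -0.34 ± 0.13 (SE) was not called (adjusted p = 0.204 by limma). MYC4, a transcription factor gene that acts with MYB factors on glucosinolate genes, had a change of -0.81 ± 0.32 (adjusted p = 0.232). Every mutant array again lay below every wild-type array, where 24.6% of all probe sets did not overlap in either direction. The size of the change rested largely on mutant array 3, at 6.79 against 7.93 and 7.98 in mutant arrays 1 and 2. The change of MYC4 was -0.43 without that array. Its paralogue MYC3 had a change of 0.15 ± 0.19 (adjusted p = 0.744).

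GTR1, which encodes a glucosinolate transporter, stood at 9.81, 9.75 and 10.85 in the wild type and at 9.06, 9.15 and 9.83 in the mutant. It was lower in the mutant array of each number, and within each genotype it was highest in array 3. Its change of -0.79 ± 0.34 (SE) was not called (adjusted p = 0.273 by limma) and had an adjusted p of 0.0218 with the array number as a block. It was -0.43 without wild-type array 3 (adjusted p = 0.514), and -0.67 with both arrays numbered 3 left out (adjusted p = 0.0240). GTR2, the related transporter gene, had a change of -0.34 (adjusted p = 0.330), and PYK10, a beta-glucosidase gene of endoplasmic reticulum bodies, one of -0.05 (adjusted p = 0.963). Of the aliphatic glucosinolate genes, which start from methionine, BCAT4 had a change of -0.14 (adjusted p = 0.580) and AT2G31790 one of -0.47 (adjusted p = 0.221, and 0.0372 with the array number as a block). For AT2G31790 every mutant array lay below every wild-type array, where 24.6% of all probe sets did not overlap in either direction.

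**Figure D4:**
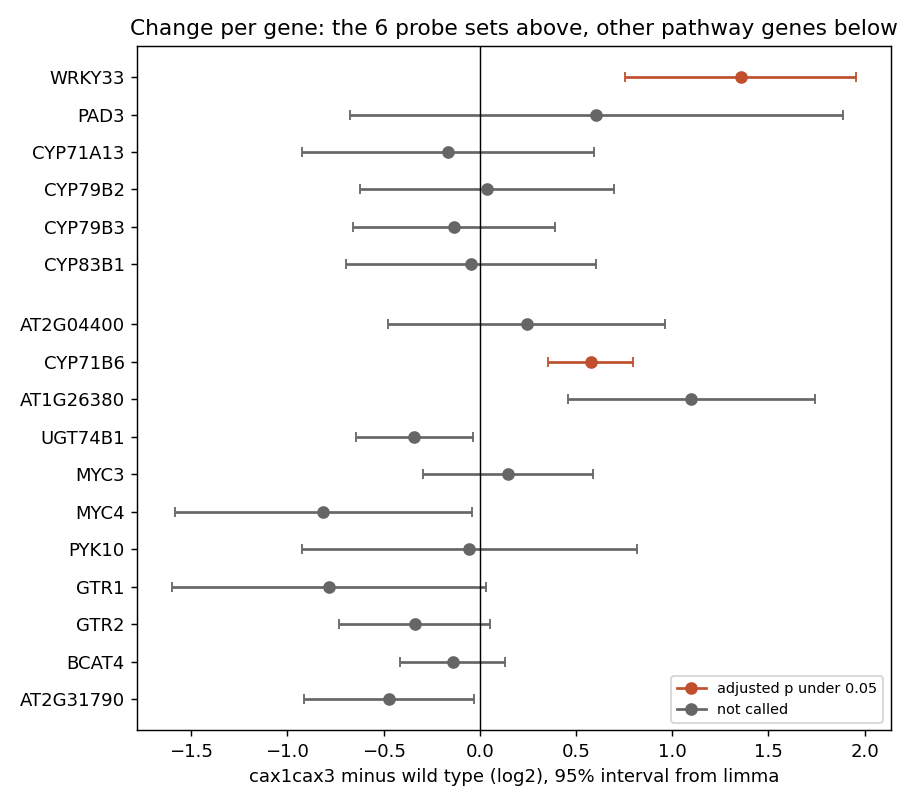
Change per gene in the mutant against the wild type (horizontal axis, log2, point with 95% interval from limma over 3 arrays per genotype) for the 6 genes, above, and the 11 other pathway genes, below, with called genes in orange. WRKY33 at 1.36 and CYP71B6 at 0.58 were called, and the interval of PAD3, from -0.68 to 1.89, was the widest among these genes.

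Organ markers gave the setting of these values. RCA, the leaf gene for Rubisco activase, was abundant in both genotypes (13.82 and 13.64) and not called (adjusted p = 0.476). Among 3 root genes PYK10 was abundant, while the root-hair expansin genes EXPA7 and EXPA18 lay between 4.75 and 5.23 on all arrays, close to the bacterial probe sets. Of 8 listed flower and pollen genes 2 were measured, AMS and AT5G07230. Their summed level on the linear scale was 82.8 to 95.4 in the wild type and 52.3 to 62.7 in the mutant. AMS, at 4.12 to 4.91, lay close to the bacterial probe sets and was not called (-0.32, adjusted p = 0.359 by limma). AT5G07230, at 5.12 to 6.15, lay around the highest bacterial value of 5.81. Of 8 silique and seed genes 1 was measured, BAN, at 49.9 to 88.1 in the wild type and 30.2 to 36.0 in the mutant. On the log2 scale its mutant values, 4.92 to 5.17, lay below the highest bacterial value. BAN (-1.05, adjusted p = 0.0401) and AT5G07230, listed for anthers, (-0.71, adjusted p = 0.0391) fell. When arrays were left out singly, BAN lost its call in 5 of 6 fits and AT5G07230 in 4, with adjusted p values as high as 0.150 and 0.151. The part of these lower marker values, and of the lesions, in the rise of WRKY33 was not tested.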

How the data were processed

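Whole plants of 2 genotypes were measured on 6 Affymetrix arrays. The authors deposited log2 expression values per probe set. The submitters' processing notes name GCOS 1.1.2 and RMA, a method that summarises each probe set after background correction and normalization, without saying how they were used. Settings are not stated there. That the scale is log2 follows from the range of the values (array medians 7.03 to 7.08), and they were used unchanged. RMA draws low values together, so changes of dim probe sets can be understated. For arrays, their number limits the precision.

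The 64 control probe sets were left out, and 22746 were fitted with limma 3.58.1 in R 4.3.3 (lmFit and eBayes, no covariates). The 6 probe sets carry the gene names of the rule that chose them. Other probe sets were named through the platform annotation, updated by gene number to RefSeq symbols of TAIR10.1 (13513 with 1 gene). Members, gene lists and tests were chosen with earlier results of these data known. The genes named are the 6, the listed pathway and organ genes that were measured, and the 5 probe sets with the nearest profiles to PAD3, CYP71A13 and CYP83B1. The fit was tested on data simulated with each probe set's own mean and spread. It called 56 of 100 probe sets given a log2 change of size 1, and 89 of 100 given a change of size 2.

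A moderated fit of the ratios to CYP83B1 had been planned beside the exact permutation test. It gave every probe set the same SE (0.406) whatever the spread of its own ratio (SE of 0.103 for CYP79B2 and 0.587 for WRKY33), so its p-values do not reflect the spread of each gene, and the permutation test was used alone. The cause was not tested, and all these ratios share the CYP83B1 values. That fit gave WRKY33 an adjusted p of 0.0280 and the other 4 genes 1.00. Same-numbered arrays deviated together from their genotype means (correlations of 0.433, 0.292 and 0.471 over probe sets for numbers 1, 2 and 3), so the number was treated as pairing the samples in an alternative fit. Alternatives were that block, quantile normalization, median centring, removal of the dimmest 33.3% of probe sets, an intensity trend, array weights, each array left out, and, added later, both arrays numbered 3 left out.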

Additional observations from a re-analysis of the deposited data

How the results depend on the processing

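WRKY33 was higher in the mutant under all 13 alternatives, by 1.18 to 1.64 with 1 array left out (adjusted p 0.0143 to 0.131) and by 1.30 with both arrays numbered 3 left out (adjusted p = 0.0577), where fewer arrays were fitted. With the replicate block its adjusted p was 0.0336, and the block changed no call among the 6 genes. PAD3 stayed positive and uncalled in all 13. The uncalled changes near 0 changed sign. With 1 array left out they ran from -0.49 to 0.11 for CYP71A13, -0.16 to 0.34 for CYP79B2, -0.27 to 0.12 for CYP79B3 and -0.25 to 0.24 for CYP83B1. With both arrays numbered 3 left out they were 0.17 for CYP71A13, 0.18 for CYP79B3 and 0.073 for CYP83B1. Among the ratio contrasts with CYP83B1, those near 0 changed sign. That of CYP71A13, -0.12, was 0.037 with array weights, 0.098 with both arrays numbered 3 left out, and -0.37 to 0.15 with 1 array left out. That of CYP79B3, -0.09, was 0.080 and 0.11 under the same alternatives and -0.21 to 0.14 with 1 array left out, and that of CYP79B2 ran from -0.014 to 0.14 with 1 array left out. Those of PAD3 and WRKY33 stayed positive, from 0.15 to 0.94 and 1.00 to 1.90 with 1 array left out. The probe sets called higher and lower, 532 and 747, became 1053 and 1171 with the replicate block, 1286 and 1560 with array weights, and 108 to 797 and 147 to 947 with 1 array left out. With both arrays numbered 3 left out, 973 were higher. Among the other genes, AT2G04400 ran from -0.019 to 0.51 with 1 array left out. PYK10 was 0.16 with array weights and 0.15 without the arrays numbered 3, and ran from -0.34 to 0.34 with 1 array left out. EXPA7 was -0.045 and -0.026 under the same alternatives and ran from -0.0065 to 0.18. The number of arrays limits the precision.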
